A study of Mus musculus with 6 samples.

Results

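In mouse testis sampled 24 hours after a brief heating of the scrotum, 73 known piRNAs stood at 20 RPM or more in every heat stress library and below 5 RPM in every control library. They were chosen by these values in 3 control and 3 heat stress libraries, among species whose identifier starts with mmu_piR_. RPM is the number of reads after scaling each library to 1000000 reads on the species that the files list. The 73 members are 0.294% of the 24845 listed mmu_piR_ species and stand among 659239 listed small RNA species in all. Because these values chose the members, the difference between heat stress and control is given here as a description and is not tested for them.

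piRNAs are small RNAs of animal germ cells that are bound by PIWI proteins and guide them to transposon and other transcripts with matching sequence. In the mouse testis, fetal and newborn germ cells carry piRNAs directed largely against transposons, and a far larger population appears when spermatocytes enter the pachytene stage of meiosis. Pachytene piRNAs are cut from long precursor transcripts of a limited number of genomic clusters, so that 1 precursor gives rise to many piRNAs of very unequal abundance. Germ cells at these stages are known to be sensitive to heat.

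The animals were C57BL/6 mice, 12 in all, divided between 2 groups. In the heat stress group the scrotum was held in water at 43 °C for 15 minutes, and in the control group at 36 °C for 15 minutes. Testis tissue was taken 24 hours later from both groups, so that the controls had also been through a water bath. Each group has 3 small RNA libraries. Neither the age of the mice nor whether a library came from 1 mouse or several is given in the sources used here, so the spread between libraries may be technical.

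The libraries differed in depth. The listed reads numbered 2573473 to 4255001 per library in control and 582789 to 2599530 in heat stress, and heat stress replicate 3 was the shallowest. A single read counts for 1.72 RPM there and for 0.235 to 0.442 RPM elsewhere. The minimum of 20 RPM thus stands for 12 reads in replicate 3 and for 46 and 52 reads in replicates 1 and 2. Species of the mmu_piR_ type held 67.2% to 67.3% of the reads in control and 77.2% to 92.6% in heat stress, and the others carry uniq_ identifiers. No microRNA or messenger RNA is named in the files, so the tissue label was not checked against marker genes. In bulk tissue, fewer cells of a type and less RNA per cell cannot be told apart.

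The set as a whole went from a trace to a visible part of the library. The members held 0.0198%, 0.0200% and 0.0155% of the reads of control replicates 1, 2 and 3, which were 767, 850 and 398 reads. In heat stress replicates 1, 2 and 3 they held 0.830%, 0.262% and 0.704%, which were 18764, 6818 and 4104 reads. The 95% Clopper-Pearson intervals, which cover counting error only, were 0.818% to 0.842%, 0.256% to 0.269% and 0.683% to 0.726% in these heat stress libraries. Replicate 2 thus lay well below the other heat stress libraries. That each heat stress library lay above the controls follows from the rule that chose the members. The group means were 0.599% ± 0.298 (SD, n = 3) and 0.0184% ± 0.00256 (SD, n = 3), a ratio of 32.5 that the choice of members in part sets. Of mmu_piR_ reads alone, the members held 0.949%, 0.340% and 0.760% in heat stress and 0.0230% to 0.0297% in control.

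**Figure D1:**
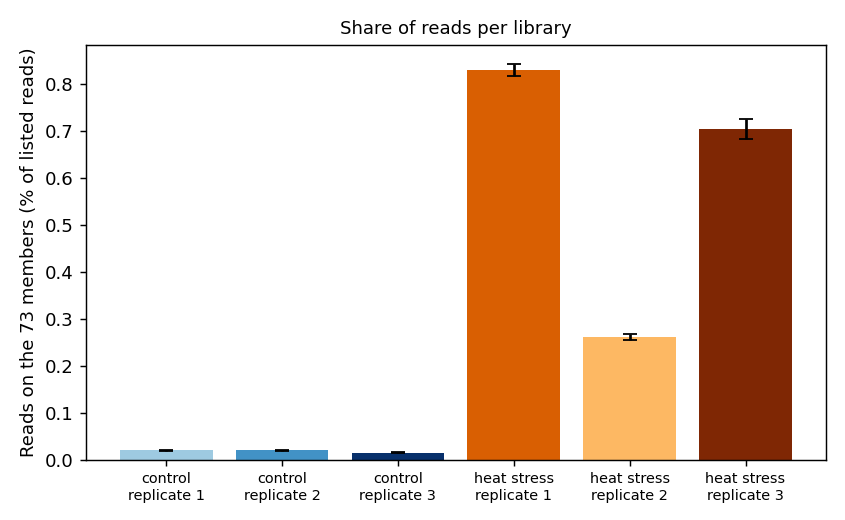
Share of listed reads (%) on the 73 members in each of the 6 libraries, with bars for the share and lines for its 95% Clopper-Pearson interval (counting error only). The control bars lie between 0.0155% and 0.0200%, and among the heat stress bars replicate 2 is the lowest at 0.262%.

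Few of the members ranked near the top of a library. Among mmu_piR_ species ordered by RPM, the median rank of the members was 1897, 4198 and 2092 in heat stress replicates 1, 2 and 3, against 12106 to 13245 in the controls. In heat stress replicate 1 there were 14 members among the 1000 most abundant mmu_piR_ species, in replicate 3 there were 7, and in replicate 2 there was 0. The highest rank of any member was 82, reached by mmu_piR_027073 in heat stress replicate 1.

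Within the set the reads were spread unevenly, and more so in heat stress replicates 1 and 3 than in replicate 2. The 10 most abundant members of a library held 44.5%, 28.01% and 35.5% of its member reads in heat stress replicates 1, 2 and 3. It took 13, 24 and 19 members to reach 50% of them. The rule in part sets this difference, because its floor of 20 RPM lies closest to the members' level in replicate 2. Their median was 69.0, 28.9 and 77.2 RPM in heat stress replicates 1, 2 and 3. Heat stress means ran from 29.8 to 556 RPM with a median of 60.3 RPM. They were 100 RPM or more for 17 members, from 50 to under 100 RPM for 31 and under 50 RPM for 25.

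In the controls the members were faint rather than all absent. Their control means ran from 0 to 4.25 RPM with a median of 2.71 RPM, and rested on 0 to 46 reads over the 3 libraries, with a median of 30 reads. Every control library held reads for 66 of the members, 1 control lacked them for 6 members and all 3 controls lacked them for 1. The highest control stood at 4 RPM or more for 29 members, under 2 RPM for 13 and under 1 RPM for 2. The members under 1 RPM in every control, of which the first was singled out after its values were seen, were mmu_piR_034791 and mmu_piR_036218.

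**Figure D2:**
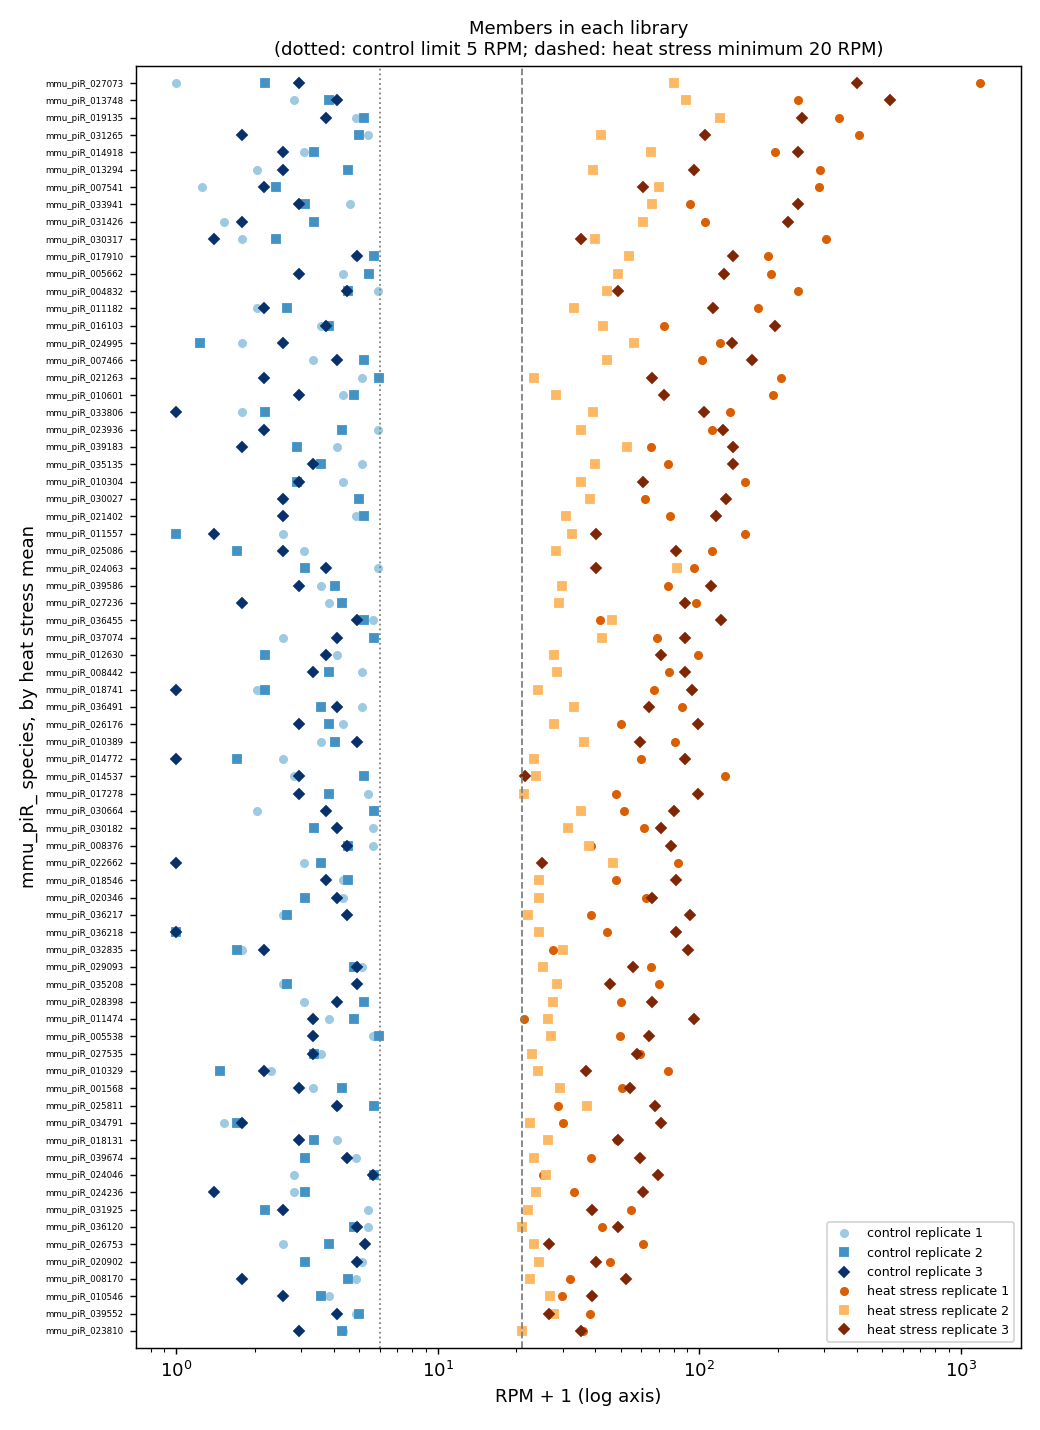
Level of each of the 73 members, as RPM + 1 on a log axis, in the 3 control (blue) and 3 heat stress (orange to brown) libraries, ordered by heat stress mean. No control point passes the dotted line at 5 RPM and no heat stress point lies left of the dashed line at 20 RPM, which is how the members were chosen, and heat stress replicate 2 is the lowest heat stress point for 62 of 73.

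The ratio of the heat stress mean to the control mean had a median of 27.0 over the 72 members with control reads and ran from 8.18 to 535. It was above 10 for 71 members, above 50 for 20 and above 100 for 9, with the member without control reads counted at its lower bound. Each heat stress library was above every control for 24.2% of the 17626 tested mmu_piR_ species, while the rule fixed that separation for all 73 members, so nothing is read from theirs.

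mmu_piR_027073 was the most abundant member. Its level was 0, 1.18 and 1.94 RPM in control replicates 1, 2 and 3 and 1189, 78.9 and 402 RPM in heat stress replicates 1, 2 and 3. Replicate 1 was the high library, and the lowest heat stress value was still far above all controls. The mean was 556 ± 571 RPM (SD, n = 3) against 1.04 ± 0.979 RPM, a ratio of 535, and the SD exceeded the heat stress mean. Without heat stress replicate 1 the mean was 240.2 RPM.

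mmu_piR_013748 followed, with the high library elsewhere. It stood at 1.81, 2.82 and 3.11 RPM in the controls and at 238 RPM in heat stress replicate 1, 88.1 RPM in replicate 2 and 537 RPM in replicate 3. The mean of 288 ± 229 RPM (SD, n = 3) fell to 163.1 RPM without replicate 3.

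mmu_piR_019135 was spread more evenly over the heat stress libraries, at 341, 119.6 and 245 RPM in replicates 1, 2 and 3 against 3.87, 4.23 and 2.72 RPM in the controls. It was the most abundant member in replicate 2, although replicate 2 was still its lowest heat stress library. mmu_piR_031265 stood at 409, 41.2 and 104.7 RPM in heat stress against 4.39, 3.995 and 0.777 RPM in control. Its heat stress mean of 185 ± 197 RPM (SD, n = 3) came down to 72.9 RPM without replicate 1.

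Several of the next members had their peak in heat stress replicate 3. mmu_piR_014918 was at 194.7, 64.2 and 239 RPM in heat stress replicates 1, 2 and 3 and at 2.07, 2.35 and 1.55 RPM in control. mmu_piR_033941 was at 91.1, 65.0 and 239 RPM, against 3.61, 2.12 and 1.94 RPM. mmu_piR_031426 was at 104.0, 60.0 and 218 RPM, against 0.516, 2.35 and 0.777 RPM. Replicate 2 was the lowest heat stress library for each of them, and at least 60.0 RPM remained there. The 95% Poisson intervals of replicates 1 and 3 overlapped for mmu_piR_014918 but not for the other two.

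Others of similar mean had their peak in replicate 1. mmu_piR_013294 stood at 288, 38.1 and 94.4 RPM in heat stress replicates 1, 2 and 3 against 1.03, 3.53 and 1.55 RPM in control, and mmu_piR_007541 at 286, 69.2 and 60.1 RPM against 0.258, 1.41 and 1.17 RPM. mmu_piR_017910 was at 182, 52.7 and 133.8 RPM, against 3.87, 4.70 and 3.89 RPM. mmu_piR_005662 was at 187.6, 48.1 and 123.5 RPM, against 3.36, 4.47 and 1.94 RPM. The first pair thus rested mainly on replicate 1, whereas the second pair stood above 100 RPM in replicate 3 too. Replicate 1 still held 49.4% of the summed heat stress RPM of mmu_piR_017910 and 52.2% of that of mmu_piR_005662. Ratios of heat stress to control means were 68.7, 146.5, 29.6 and 36.8 for these 4 species in the order named.

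mmu_piR_036218 was the only member with no read in any control, out of 10702014 control reads. It had 98, 61 and 47 reads in heat stress replicates 1, 2 and 3, which are 43.4, 23.5 and 80.6 RPM and a mean of 49.2 ± 29.0 RPM (SD, n = 3). Against a limit of 3 reads over the control group, which is 0.280 RPM, the heat stress mean was at least 175-fold higher. The member with the next lower identifier number, mmu_piR_036217, is the only case of consecutive numbers in the set. It stood at 37.6, 21.2 and 90.9 RPM in heat stress replicates 1, 2 and 3, close to its numerical neighbour and in the same order. That order, replicate 3, 1, 2, was the most common of the set, in 36 of 73 members, so nothing is read from the match. In the controls, however, mmu_piR_036217 had 6, 7 and 9 reads, or 1.55, 1.65 and 3.497 RPM, where mmu_piR_036218 had 0.

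The order of the heat stress libraries was alike for most members in 1 respect: replicate 2 was the lowest for 62 of 73 and the highest for 0. Replicate 1 was the highest for 32 members and replicate 3 for 41. In full, 36 members followed the order replicate 3, 1, 2, 26 the order 1, 3, 2, 6 the order 1, 2, 3 and 5 the order 3, 2, 1. The median ratio of replicate 1 to replicate 2 over members was 2.30, and that of replicate 2 to replicate 3 was 0.388. Between replicates 1 and 3 the median ratio was 0.904, so neither was generally the higher. These are differences between single libraries with no replicate check.

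How replicates 1 and 3 stand to each other depended on the scaling. With TMM factors, which adjust for composition and were 0.554, 0.997 and 0.952 for heat stress replicates 1, 2 and 3, replicate 1 was the highest for 54 members and replicate 3 for 19. DESeq2 size factors gave 53 and 20. On both scales replicate 2 was the highest for 0 members. Counting error also limits the order: the interval of the highest heat stress library lay above that of the next for 39 members, 17 with the peak in replicate 1 and 22 with the peak in replicate 3.

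Known piRNAs at large were divided differently. Among all 3520 mmu_piR_ species with 20 RPM or more in each heat stress library, of which the members are 2.07%, replicate 1 was the highest for 26.6%, replicate 2 for 33.9% and replicate 3 for 39.5%. Replicate 2 was the lowest for 35.8% of them, against 84.9% of the members. For 60 mmu_piR_ species that were already at 20 RPM or more in each control and stood in each heat stress library at 4 times the highest control or more, replicate 2 was the lowest for 78.3% and the highest for 3.33%. Replicate 2 was thus the low heat stress library both for the members and for expressed piRNAs chosen for a rise. These shares are descriptions over species that come from the same 3 libraries, and the difference between the sets was not tested.

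**Figure D3:**
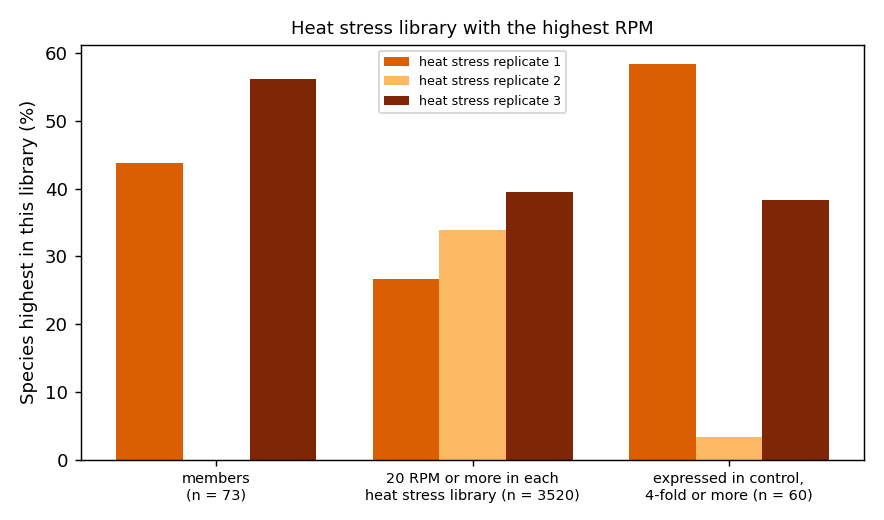
Share of species (%) whose highest heat stress value lies in replicate 1, 2 or 3, for the 73 members, for the 3520 mmu_piR_ species with 20 RPM or more in each heat stress library and for the 60 species expressed in control and at 4 times the highest control or more in each heat stress library. Replicate 2 holds the peak for 0% of the members and for 33.9% of the 3520 species.

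The spread between heat stress libraries was wide. The ratio of the highest to the lowest heat stress library had a median of 3.40 over the members, 2.32 over the 3520 species and 2.92 over the 60 species. It was under 2 for 8.22% of the members, against 36.3% and 13.3%, a difference that was not tested. Across the 73 members, Pearson's r of log2(RPM + 1) was 0.63 between heat stress replicates 1 and 2, 0.60 between 2 and 3 and 0.38 between 1 and 3. Spearman's rho was 0.61, 0.53 and 0.31 for the same pairs. The members share libraries, depth and a floor of 20 RPM, so these coefficients describe the libraries only.

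A minority of members rested on 1 library. At least 66.7% of the summed heat stress RPM lay in a single library for 10 members, which is 13.7%, against 5.60% of the 3520 species and 8.33% of the 60 species. The library was heat stress replicate 1 for 9 of them and replicate 3 for 1. At the weaker mark of 50% of the sum there were 43 members, 18 in replicate 1 and 25 in replicate 3, which is 58.9% of the members, against 39.1% of the 3520 species and 30 of the 60. These differences were not tested. Leaving out replicate 1 lowered the heat stress mean by more than 1.5 times for 13 members, leaving out replicate 3 did so for 13, and leaving out replicate 2 for 0.

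mmu_piR_030317 was the most lopsided. It stood at 304 RPM in heat stress replicate 1 and at 38.9 and 34.3 RPM in replicates 2 and 3, so that 80.6% of the sum lay in replicate 1. In the controls it was at 0.774, 1.41 and 0.389 RPM. The heat stress mean of 125.6 ± 154 RPM (SD, n = 3) came down to 36.6 RPM without replicate 1.

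Next in this respect was mmu_piR_014537, at 124.3, 22.7 and 20.6 RPM in heat stress replicates 1, 2 and 3 against 1.81, 4.23 and 1.94 RPM in control. Without replicate 1 its heat stress mean was 21.6 RPM, just over the minimum. The share of replicate 1 was 74.2% for this member, 73.7% for mmu_piR_031265, 72.2% for mmu_piR_004832 and 71.2% for mmu_piR_027073. mmu_piR_004832 stood at 238, 43.5 and 48.0 RPM in heat stress and at 4.91, 3.53 and 3.497 RPM in control. For this species too, replicates 2 and 3 were alike and replicate 1 stood apart.

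In replicate 3 the most lopsided was mmu_piR_011474, with 67.4% of the sum there. It stood at 20.4, 25.4 and 94.4 RPM in heat stress replicates 1, 2 and 3, and its mean without replicate 3 was 22.9 RPM. mmu_piR_016103 had 63.0% in replicate 3, at 72.1, 41.9 and 193.9 RPM against 2.58, 2.82 and 2.72 RPM in control. The controls of this species were nearly equal, with a mean of 2.71 ± 0.120 RPM (SD, n = 3). They rested on 10, 12 and 7 reads, however, so counting error was wider than this spread. The third was mmu_piR_013748, described above, with 62.2%.

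No member had its peak in replicate 2, and its largest share of a member's sum there was 37.9%, in mmu_piR_024063. That species stood at 94.2, 81.6 and 39.5 RPM in heat stress replicates 1, 2 and 3 and at 4.91, 2.12 and 2.72 RPM in control. The next largest shares were 30.2% in mmu_piR_022662 and 30.0% in mmu_piR_039552. mmu_piR_022662 was at 81.9, 45.8 and 24.0 RPM in heat stress and at 2.07, 2.59 and 0 RPM in control. In all 3 of these species replicate 3 was the lowest heat stress library, the reverse of most of the set.

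**Figure D4:**
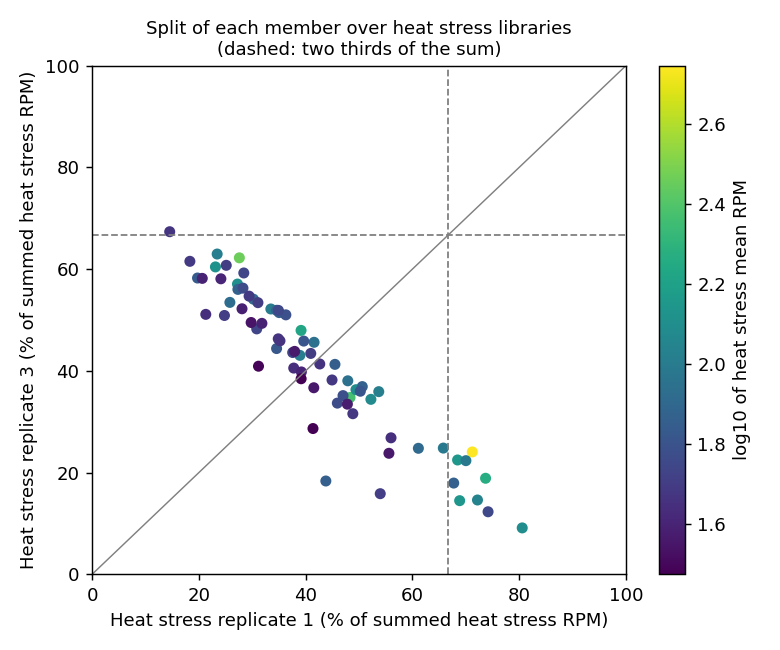
Share of each member's summed heat stress RPM (%) in heat stress replicate 1 (horizontal) and replicate 3 (vertical), 1 point per member, coloured by the log10 of its heat stress mean RPM. To the right of the vertical dashed line lie the 9 members with at least 66.7% in replicate 1, and above the horizontal one lies the single member with as much in replicate 3.

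The 5 most even members all had heat stress means under the median of the set. The rule in part sets this, because its floor of 20 RPM limits how uneven a member of low mean can be. mmu_piR_039552 had the smallest ratio of highest to lowest heat stress library, 1.44, at 37.2, 26.9 and 25.7 RPM against 3.87, 3.995 and 3.11 RPM in control. Its ratio of means, 8.18, was the smallest of the set. mmu_piR_010546 was at 28.8, 25.8 and 37.7 RPM against 2.84, 2.59 and 1.55 RPM. mmu_piR_023810 was at 34.95, 20.004 and 34.3 RPM against 3.36, 3.29 and 1.94 RPM. At this level replicate 3 rested on 15, 22 and 20 reads for the 3 species, and evenness could not be judged more finely.

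Slightly higher means were seen in mmu_piR_001568, at 49.6, 28.5 and 53.2 RPM in heat stress, and mmu_piR_018131, at 47.3, 25.4 and 48.0 RPM. Their controls lay between 1.94 and 3.29 RPM. Replicates 1 and 3 were nearly equal in both and replicate 2 was lower.

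The edge of the set fell mostly in heat stress replicate 2. Of 13709 mmu_piR_ species below 5 RPM in each control, 12995 reached 20 RPM in 0 heat stress libraries, 485 in 1, 156 in 2 and 73 in all 3. Of the 156, 134 fell short in replicate 2, 12 in replicate 3 and 10 in replicate 1. Of the 485, 299 reached the minimum in replicate 3, 171 in replicate 1 and 15 in replicate 2. The minimum stands for only 12 reads in replicate 3, against 46 and 52 in replicates 1 and 2, so counting error weighs more there. How far this raised the number for replicate 3 was not tested.

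Just inside the minimum stood mmu_piR_036120 with 20.004 RPM in heat stress replicate 2, mmu_piR_023810 with 20.004 RPM there and mmu_piR_011474 with 20.4 RPM in replicate 1. Just outside stood mmu_piR_013990 with 19.6 RPM in replicate 2, and mmu_piR_016120 and mmu_piR_033620 with 19.2 RPM there. mmu_piR_013990 was at 38.1 and 84.1 RPM in replicates 1 and 3 and at 0.258, 0.940 and 0.389 RPM in control. mmu_piR_016120 was at 189.8 RPM in replicate 1. A gap of 52 reads against 51 or 50 in replicate 2 separates the 2 sides, and the 95% Poisson interval for 51 reads, 14.6 to 25.8 RPM, spans the minimum.

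Just inside the control limit stood mmu_piR_005538 and mmu_piR_021263, each with 4.94 RPM in control replicate 2, and mmu_piR_004832 with 4.91 RPM in control replicate 1. Just outside stood mmu_piR_030024, mmu_piR_033461 and mmu_piR_005840, each with 5.05 RPM, or 13 reads, in control replicate 3. mmu_piR_033461 was at 116.4, 27.7 and 96.1 RPM in heat stress replicates 1, 2 and 3, above the members' median in replicates 1 and 3 and below it in replicate 2. Over the whole set, 27 members had a heat stress library whose interval reached below 20 RPM and 55 had a control whose interval reached 5 RPM or more. For these species the side of the threshold lay within counting error.

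A library that took no part in the choice gives a separate reading. When heat stress replicate 1 was left out, the rule chose 83 species, and 78 of them were higher in replicate 1 than in every control. When replicate 2 was left out, it chose 207 species, of which 204 were above every control in replicate 2. When replicate 3 was left out, it chose 85, of which 82 were above every control in replicate 3. These are 94.0%, 98.6% and 96.5%, while over all 13709 mmu_piR_ species below 5 RPM in each control the same held for 35.9%, 42.7% and 41.4% in replicates 1, 2 and 3. The controls were used in the choice throughout, and 1608 of the 13709 species had no read in any heat stress library.

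In size the library left out differed. Of the species chosen without it, 88.0% reached 20 RPM in replicate 1 and 85.9% in replicate 3, but 35.3% in replicate 2, against 2.84%, 3.76% and 0.802% of the 13709 species. Those that reached it were the 73 members each time, so these percentages restate how many species fell short in 1 library only. The median in the library left out was 61.5 RPM for replicate 1, 66.9 RPM for replicate 3 and 16.2 RPM for replicate 2. The share of reads in it was 0.835%, 0.713% and 0.418% for replicates 1, 3 and 2. Nearly all species that replicates 1 and 3 picked were thus above the controls in replicate 2, but at a lower level.

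**Figure D5:**
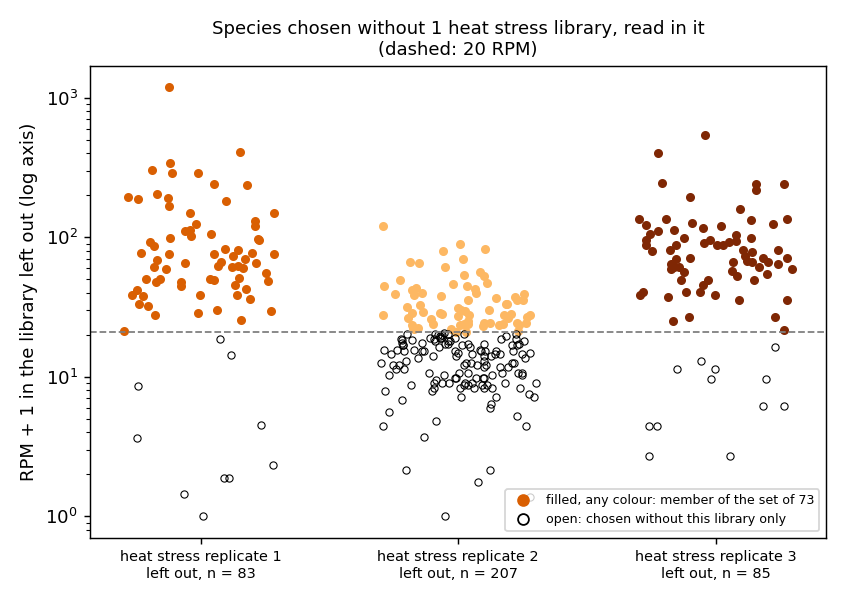
RPM + 1 (log axis) in the heat stress library left out, for the species chosen by the other 5 libraries, with filled points for the 73 members and open points for species that fell short only in the library left out. For replicates 1 and 3 most points lie above the dashed line at 20 RPM, while for replicate 2 the points crowd on both sides of it, with a median of 16.2 RPM.

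The same thresholds found far fewer species the other way. Only 7 mmu_piR_ species were below 5 RPM in each heat stress library and at 20 RPM or more in each control. They held 0.0230% to 0.0263% of the control reads and 0.00120% to 0.00246% of the heat stress reads. The upper limit of 5 RPM stands for fewer than 3 reads in heat stress replicate 3. Among uniq_ species the numbers ran the other way round, with 6 that met the rule of the members and 31 that met the reversed rule. These counts were made on the RPM scale only.

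The 6 uniq_ species stood at 20.6 to 610 RPM in heat stress. All 6 were lowest in replicate 3, and 5 were highest in replicate 1. Among the 73 known piRNAs replicate 3 was the lowest for 6. Of all listed reads, mmu_piR_ species held 87.5%, 77.2% and 92.6% in heat stress replicates 1, 2 and 3. The share left to uniq_ species was thus smallest in replicate 3. The order within uniq_ reads alone was not computed, so the library orders of the uniq_ species and the members cannot be compared. Values in replicate 3 rested on 12 to 58 reads for the 6 species.

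In the fit over all 50786 tested species (limma on log2(RPM + 1), adjusted p under 0.05), all 73 members were called higher in heat stress, where 15.9% of 17626 tested mmu_piR_ species were called higher. The rule rests on this contrast, so nothing is read from that count. The members' log2 fold changes, which on the log2(RPM + 1) scale are too small for low species, ran from 2.72 to 7.50 with a median of 4.06, beside a median of 0.03 over tested mmu_piR_ species and -0.87 over all tested species.

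The identifier numbers of the members ran from 1568 to 39674 among listed numbers from 1 to 39986. Of listed numbers up to 10000, 9 of 6230 were members, or 0.144%, against 0.336%, 0.318% and 0.378% in the next 3 blocks of 10000. Species at 20 RPM or more in each heat stress library were also less frequent in the first block, at 11.3% against 14.8% to 15.7%, whereas the share below 5 RPM in each control was 53.1% to 56.2% in all 4 blocks. What the numbering follows is not stated in the labels or files.

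Species next to a member in number did not stand out. Of 92 listed non-members with a number 1 above or below a member, 64 were tested, 10 were called higher and 3 lower by limma at an adjusted p under 0.05. The 15.6% called higher is close to the 15.9% of all tested mmu_piR_ species, and the 4.69% called lower compares with 9.85%. The number called higher was 2, 4 and 6 without control replicates 1, 2 and 3, when 9.37%, 9.75% and 9.09% of all tested mmu_piR_ species were called higher.

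The clearest of these was mmu_piR_010328, next to the member mmu_piR_010329 and named after its values were seen. It was at 1.03, 1.41 and 0 RPM in control and 34.1, 12.7 and 15.4 RPM in heat stress replicates 1, 2 and 3, with a log2 fold change of 3.55 (SE 0.59, limma adjusted p = 0.0027). In the opposite direction, mmu_piR_007467, next to the member mmu_piR_007466, stood at 56.0, 49.4 and 41.6 RPM in control and 5.31, 20.4 and 12.01 RPM in heat stress, a log2 fold change of -2.04 (SE 0.54, limma adjusted p = 0.0110). Neighbours in number could thus move apart.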

How the data were processed

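Small RNA libraries from testis, 3 per group, were deposited with 1 value per species and library. The authors' values are in RPM: each library sums to 1000000, and no length enters. Per the file headers the column is called tpm. Trizol extraction and standard Illumina libraries are stated in the labels' protocols. For trimming, aligner, genome build and source of the piRNA names, nothing is given in the sources used here. Every value above 0 was a whole multiple of 1 read within 0.001 of a read (100% of values), so read numbers were recovered. Sequences and positions of the species were not analysed here.

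The members and lists were chosen with earlier results of these data known. Groups came from the sample titles. The fit over all species used log2(RPM + 1) in limma 3.58.1 under R 4.3.3, with trend and robust moderation, and kept species with 1 RPM or more in 3 libraries or more, with no covariate and with Benjamini-Hochberg adjustment. edgeR 4.0.16 and DESeq2 1.42.0 on the recovered reads were alternatives. Of the fits, limma on log2(RPM + 1), edgeR with TMM and DESeq2 were tested on simulated data, and the other variants were not. The species changed in the simulation were more abundant in control than any member. Intervals are exact at 95%. Members were named as the 12 highest in heat stress, the 5 most even, the 5 resting most on 1 library and the 3 most so per replicate, those without control reads, those in consecutive numbers, and 3 species on each side of each threshold. Alternatives were other thresholds, scalings, thinning to 582789 reads, a replicate block and leaving out each library.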

Additional observations from a re-analysis of the deposited data

How the results depend on the processing

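The number of members depended on the thresholds. It was 2, 13 and 197 with control limits of 1, 2 and 10 RPM, 259, 10 and 1 with heat stress minimums of 10, 50 and 100 RPM, 420 by group means and 11 where all Poisson intervals had to lie within the limits. With TMM factors it was 114. These factors lower every control value and raise every heat stress value, so that all 73 stayed was fixed in advance. DESeq2 factors gave 76 with 53 of the 73, scaling to mmu_piR_ reads 56 with 32 and thinning 60 with 38, so similar counts held different species. Leaving out 1 library gave 80 to 207, the highest without heat stress replicate 2.

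The share of reads on the members was 0.580 percentage points higher in heat stress. With mmu_piR_ reads as denominator it was 0.655 points, after thinning 0.581 and without the 10 members of highest heat stress mean 0.373. With 1 library left out the range was 0.465 to 0.749 points. A different quantity is the rise of species chosen without a heat stress library and read in that library alone. It was 0.815, 0.373 and 0.691 points for replicates 1, 2 and 3. Highest in heat stress replicate 1 were 54 members with TMM, 53 with DESeq2 factors and 17 where intervals lay apart, and for replicate 3 these numbers were 19, 20 and 22. After thinning, replicate 2 was the highest for 1. Members with most of their sum in 1 library numbered 43 at 50% and 1 at 80%, and 9 to 15 with other scalings and thinning.

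The members were chosen on the contrast that the fits test, so their calls (73 in each limma and edgeR fit) say nothing about stability. DESeq2 called 72 and gave no adjusted p for mmu_piR_030317. With the replicate number as a block the count was 73, and 9 of the neighbours in number were called higher. Deviations from the group mean correlated at r between -0.02 and 0.02 for libraries with the same number. For libraries with different numbers r was between -0.03 and 0.03. Values this small cannot show whether same-numbered libraries were prepared together, which the labels do not state. Of neighbours within 2 and 5 numbers, 17 of 114 (14.9%) and 49 of 304 (16.1%) were called higher, against 15.9% of all tested mmu_piR_ species. Without 1 library the number was 2 to 10 of the 64. For the block fit and the fits without a heat stress library, the share over all mmu_piR_ species is not given, so nothing is read from those counts. Depth limits single values most in heat stress replicate 3.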

Other observations

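The 7 mmu_piR_ species of the reversed pattern, which all fall outside the set described above, were mmu_piR_007026, mmu_piR_009084, mmu_piR_009108, mmu_piR_022731, mmu_piR_023790, mmu_piR_025935 and mmu_piR_027202. mmu_piR_009108 was the most abundant of them, at 64.8, 46.8 and 45.1 RPM in control replicates 1, 2 and 3 and at 2.21, 1.92 and 1.72 RPM in heat stress replicates 1, 2 and 3, the last from 1 read. For 5 of the 7, heat stress replicate 2 was the highest heat stress library, where the members were highest there in 0 of 73. The 7 species had only 0 to 12 reads in any heat stress library, however. The limit of 5 RPM allows fewer than 3 reads in replicate 3, so their order is uncertain and nothing is read from this contrast. These species were chosen by their values, so no test is given.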
